A study of Mus musculus with 30 samples.

Results

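The aorta of B cell-deficient mice 42 days after a sham operation was compared with the unoperated aorta of the same line. The arrays are those labelled uMT_sham_d42, replicates 1 to 3, and uMT_pre, replicates 1 to 3, and they make up 6 of the 30 arrays of the series. The uMT line is on the C57BL/6 strain and is described in the labels as B cell-deficient. As background, uMT mice carry a disrupted immunoglobulin mu heavy chain gene and make no mature B cells, and this holds for both groups here. In the sham operation, physiological saline was laid around the abdominal aorta in place of the 0.5 M calcium chloride that was used to induce aneurysm. Unoperated mice (pre) had no application. The sham groups were sampled 7 or 42 days after the operation, and the WT line has the same 5 groups. Each group holds 3 arrays. Total RNA of the aortic tissue was labelled with 1 dye (Cy3) and read on Agilent probe arrays. Age, sex and the number of mice per array are not stated, so p-values measure the spread between these samples, which may be partly technical. All arrays carry the tissue label abdominal aortic aneurysm, including those of unoperated mice. Acta2 (smooth muscle actin) and Myh11 (smooth muscle myosin) were well above background on all 6 arrays. This shows smooth muscle RNA but does not test the aneurysm part of the label.

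The aortic wall holds contractile smooth muscle in its media, and fibroblasts and resident macrophages in its outer layer, the adventitia. Resident adventitial macrophages carry scavenger and lectin receptors such as Cd163, Lyve1, Mrc1 and the Cd209 family. Macrophages that take up lipid or debris after injury are marked by genes such as Trem2, Lgals3, Spp1, Mmp12 and Itgax, and adventitial fibroblasts by matrix proteins and the surface protein Cd34.

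The sequence before the start site is shown for 3 genes on which the results turn: Mmp12, which rose, Cd163, which fell, and Mme, which fell at day 42 and was near its unoperated level at day 7. The sequences are from RefSeq, build GRCm38.p6, 250 bases each, on the plus strand, written 5′ to 3′. Capitals mark matches on either strand to GAGGAA (core of the macrophage factor PU.1), TGANTCA (AP-1) or CACGTG (E-box), which do not overlap here.
Mmp12, chr9:7344147-7344396: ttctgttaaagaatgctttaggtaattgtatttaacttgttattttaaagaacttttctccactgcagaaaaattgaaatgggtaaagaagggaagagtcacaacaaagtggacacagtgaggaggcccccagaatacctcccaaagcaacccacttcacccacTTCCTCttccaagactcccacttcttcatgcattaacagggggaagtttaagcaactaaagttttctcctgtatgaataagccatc
Cd163, chr6:124304401-124304650: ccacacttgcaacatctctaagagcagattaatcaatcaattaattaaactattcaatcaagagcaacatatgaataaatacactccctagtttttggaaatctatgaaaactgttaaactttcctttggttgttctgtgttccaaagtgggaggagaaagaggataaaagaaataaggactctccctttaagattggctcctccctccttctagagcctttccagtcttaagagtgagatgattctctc
Mme, chr3:63294961-63295210: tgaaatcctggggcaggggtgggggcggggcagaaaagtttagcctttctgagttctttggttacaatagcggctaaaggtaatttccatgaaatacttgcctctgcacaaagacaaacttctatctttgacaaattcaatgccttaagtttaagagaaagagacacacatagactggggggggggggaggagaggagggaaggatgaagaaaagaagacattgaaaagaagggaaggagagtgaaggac
GAGGAA was found in 23.3% of the 32851 promoter windows of this length, TGANTCA in 6.75% and CACGTG in 6.02%. The window of Mmp12 held 1 match, to GAGGAA, and those of Cd163 and Mme held 0 matches. The RefSeq table lists 2 start sites for Mmp12 and 3 for Mme, and the first listed is shown.

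Array quality was examined first, because several of the 6 arrays were dim. A probe counts as well above background by the scanner software's own flag. The share of such probes was 50.6%, 42.4% and 56.7% on the unoperated arrays and 53.3%, 47.8% and 45.8% on the day 42 arrays. Unoperated replicate 2 and day 42 replicates 2 and 3 thus lay under 50%, and the groups overlapped. The 75th percentile of the processed signal was 174, 90.6 and 311 in the unoperated group and 231, 121 and 95.7 at day 42 (exact permutation test, two-sided, p = 0.7, n = 3 and 3, smallest possible p 0.1). The signal of the a107 spike-in, an RNA added to each sample, was 150, 198 and 99.4 against 406, 941 and 351, without overlap (exact permutation p = 0.1, 0.3 after adjustment over 12 measures). Spike-in signal was not higher in general. The geometric mean of 5 other spike-in probes was 5708, 9518 and 4800 against 4041, 2509 and 6040. These overlap and are lower on average at day 42 (exact permutation p = 0.3). On day 42 replicate 2 the software's spike-in line could not be fitted. All of these arrays but unoperated replicate 1 shared a slide. The 3 arrays of uMT sham day 7, on that same slide, were the brightest of the line, with at least 57.3% of probes well above background.

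**Figure D1:**
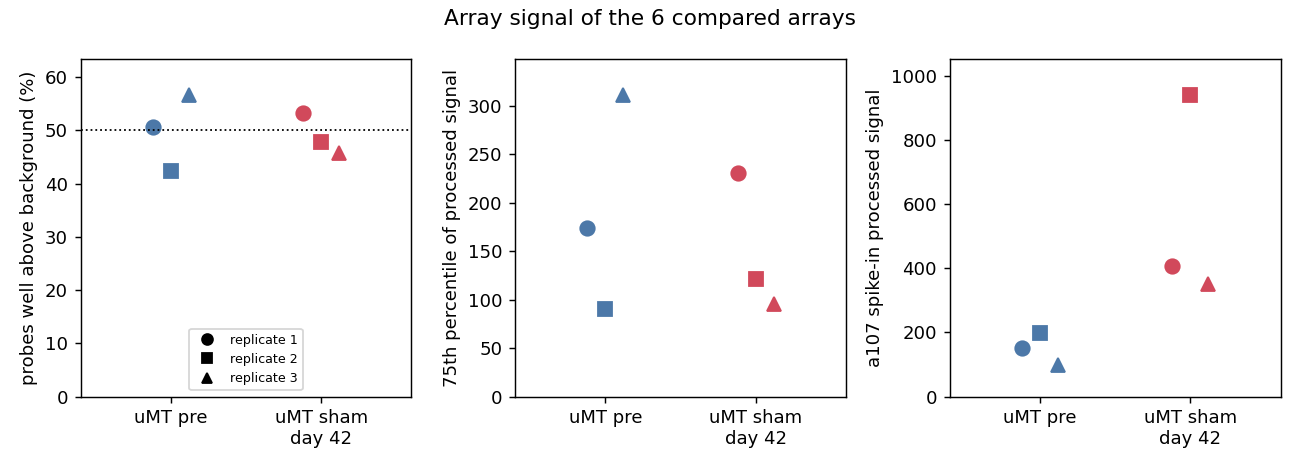
Share of probes well above background (%), 75th percentile of processed signal and a107 spike-in signal (arbitrary units) for each of the 6 arrays; points are single arrays, the marker gives the replicate number, and the dotted line marks 50%. The first 2 measures overlap between the groups, and the a107 signal is 99.4 to 198 in unoperated and 351 to 941 in day 42 arrays.

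Signal was expressed as log2 of the processed signal minus the array's 75th percentile, called the level below. Of 22074 gene names tested across the 15 uMT arrays, 2635 were higher and 4270 lower at day 42 (limma, Benjamini-Hochberg adjusted p under 0.05), so 31.3% were called, 11.9% higher and 19.3% lower. The excess of lower calls turned under other scalings: 4320 were higher and 2258 lower with the percentile restricted to probes above background throughout, and 2880 and 2561 with cyclic loess. Levels of the 2 groups did not overlap for 40.7% of the names. The median difference of all names was -0.08. These counts rest on few arrays of uneven brightness. Without the dim arrays, which leaves 1 day 42 array that is assumed to vary like the other groups, 118 names were higher and 18 lower, and 32 of these were called in the same direction in the full set. All of the 24 largest rises and falls named below kept their direction there, but most were no longer called. The direction was fixed in advance, because these genes were chosen for no overlap between the groups. Without day 42 replicate 2 the counts were 1205 and 2221, and without unoperated replicate 1, 1510 and 2368. With all 30 arrays in the fit, they were 1697 and 2353. Among the unoperated and day 42 arrays of the shared slide they were 1113 and 1136.

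The largest rises included genes known from macrophages that degrade matrix and handle debris. Atp6v0d2, a subunit of the proton pump of lysosomes and osteoclasts, had levels of -5.43, -4.82 and -4.65 on the unoperated arrays and 1.85, 1.91 and -0.35 on the day 42 arrays. Every day 42 array lay above every unoperated array, which was required of all genes counted among the largest rises. The unoperated arrays were not well above background for Atp6v0d2, so the rise is a bound, at least 26.6-fold (limma adjusted p = 0.00258; fitted log2 difference 6.10, SE 0.77). Mmp12, the macrophage elastase, was likewise not well above background in the unoperated aorta, with levels of -4.89, -4.67 and -6.58 on the unoperated arrays and 1.67, 0.88 and -0.89 on the day 42 arrays. Its rise was at least 17.8-fold (limma adjusted p = 0.00258), and its second kept probe gave a smaller log2 difference of 2.28. The Mmp12 probe lies at chr9:7352935-7352994 in mm9, the build of the probe coordinates.

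Itgax, the integrin CD11c of dendritic cells and lipid-laden macrophages, was measured on all 6 arrays, with levels of -2.51, -1.99 and -1.62 on the unoperated arrays and 3.36, 3.79 and 1.67 on the day 42 arrays. It rose by 4.98 ± 0.74 (log2 difference ± SE, limma adjusted p = 0.00258), and the groups did not overlap, as its selection required. Galectin-3 (Lgals3) had levels of 3.79, 3.30 and 3.08 on the unoperated arrays and 7.24, 6.78 and 5.59 on the day 42 arrays, a log2 difference of 3.15 (limma adjusted p = 0.00473). Trem2, a lipid-sensing receptor of macrophages, had levels of 2.03, 1.15 and 0.79 on the unoperated arrays and 4.62, 4.83 and 3.21 on the day 42 arrays, a log2 difference of 2.90 (limma adjusted p = 0.00566). In these genes day 42 replicate 3 was the lowest of its group but still above every unoperated array. Osteopontin (Spp1) was well above background on 0 of 3 unoperated arrays and rose by at least 11.4-fold (limma adjusted p = 0.0228), with levels from -3.82 to 2.81 at day 42 and only 2 of 3 arrays well above background.

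Clec4d, a C-type lectin receptor of myeloid cells, rose by 5.38 on the log2 scale, Stra6l by at least 6.66-fold, the kinase Cdk18 by 3.83 log2 units, the lysosomal transporter Slc15a3 by 3.56 and the glycosyltransferase Galnt6 by 3.33 (limma adjusted p = 0.00258 to 0.00553). The other kept probe of Galnt6 gave a log2 difference of 0.90. In unoperated aorta Slc15a3 was well above background on 1 of 3 arrays, and Clec4d, Cdk18 and Galnt6 on 2 of 3. Their rises are not exact sizes. Clec4d, Stra6l, Cdk18, Slc15a3 and Galnt6, with Atp6v0d2, Mmp12 and Itgax, make 8 of the 12 largest rises. All 8 were also called higher in uMT sham day 7 than in unoperated aorta, where 2.37% of names were called in either direction; both comparisons use the same unoperated arrays. Values at day 7 and day 42 lay close together. Atp6v0d2 had levels of 1.35, 2.34 and 0.35 on the day 7 arrays and Mmp12 of 0.17, 1.03 and -1.38. Itgax was higher than in unoperated aorta by 5.23 at day 7 and 4.98 at day 42 (log2 differences). Day 42 against day 7, tested directly, gave differences of -0.34 to 0.62 for these 8 genes and no call (limma adjusted p = 0.575 to 0.985). In the WT line, Atp6v0d2, Mmp12 and Stra6l were called higher in sham day 42 than in unoperated aorta (limma adjusted p = 0.00292, 0.00344 and 0.0243). The other 5 of the 8 were not (limma adjusted p = 0.0502 to 0.196), with Itgax at 2.51 in WT against 4.98 in uMT. The WT day 42 group includes replicate 2, with 36.6% of probes well above background, and the share of all names called in WT is not given here. A missing call in WT is thus no sign of a difference between the lines. None of the 12 largest rises was called different between the lines with all 30 arrays (limma interaction, adjusted p = 0.239 to 0.938). Without WT sham day 42 replicate 2, Calcr and Grifin were (limma adjusted p = 0.0271 and 0.0148).

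**Figure D2:**
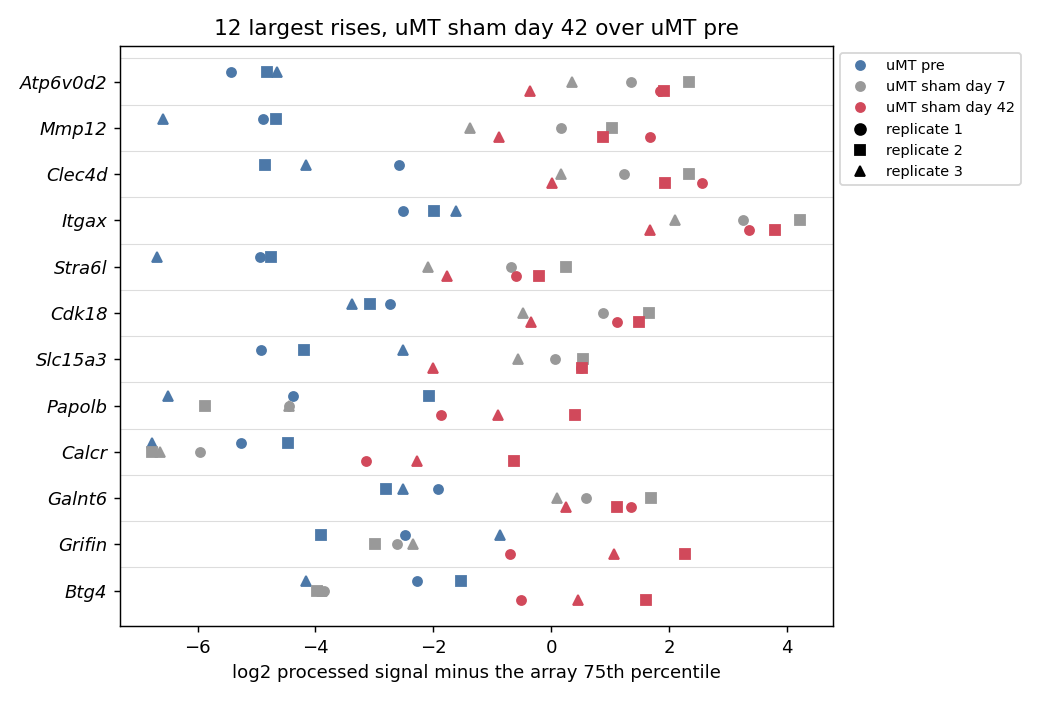
Levels (log2 processed signal minus the array 75th percentile) of the 12 genes with the largest rises on each uMT unoperated, sham day 7 and sham day 42 array; each point is 1 array. These genes were chosen for no overlap between day 42 and unoperated arrays. For 8 genes the day 7 arrays lie with the day 42 arrays. For Papolb, Calcr, Grifin and Btg4 the day 7 arrays lie with the unoperated arrays.

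The other 4 of the 12 largest rises were of another kind: Papolb and Btg4, best known from germ cells and eggs, Calcr, the calcitonin receptor, and Grifin, a lens galectin. Papolb had levels of -4.39, -2.08 and -6.51 on the unoperated arrays and -1.87, 0.41 and -0.91 on the day 42 arrays. Btg4 had levels of -2.28, -1.53 and -4.16 on the unoperated arrays and -0.52, 1.62 and 0.45 on the day 42 arrays. In both, the dim unoperated replicate 2 was the highest of its group and the bright day 42 replicate 1 the lowest of its own, while the day 7 arrays were on average no higher than the unoperated ones. Differences from unoperated at day 7 were -0.60 for Papolb, -0.23 for Grifin and -1.25 for Btg4, and neither these nor Calcr were called. At day 42 they were 3.53 for Papolb, 3.30 for Grifin and 3.17 for Btg4, and Calcr, not well above background in unoperated aorta, rose by at least 2.99-fold (limma adjusted p = 0.00718 to 0.0153). In unoperated aorta Papolb was well above background on 1 of 3 arrays and Grifin on 2 of 3, so their rises are not exact sizes. Without the dim arrays, Grifin's difference was 0.97 (limma adjusted p = 0.497).

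Genes of resident adventitial macrophages were lower at day 42. Of 14 measured members of that list, 10 were lower and 0 higher, with a median difference of -2.61 against -0.08 for all names. Over all names 19.3% were lower. Cd163, the scavenger receptor for haemoglobin, had levels of -1.67, -1.83 and -1.65 on the unoperated arrays and -5.94, -5.19 and -4.98 on the day 42 arrays. The day 42 arrays were not well above background, so the fall is at least 2.60-fold (limma adjusted p = 0.00258). Cd209b, a lectin receptor, had levels of -1.37, -1.80 and -1.87 on the unoperated arrays and -5.74, -4.96 and -4.77 on the day 42 arrays, a fall of at least 2.67-fold (limma adjusted p = 0.00128). Cd163 and Cd209b are among the 12 largest falls, which were chosen for no overlap between the groups. Lyve1, the hyaluronan receptor, had levels of 2.22, 1.54 and 1.56 on the unoperated arrays and 0.26, -0.83 and -0.92 on the day 42 arrays (log2 difference -2.27, limma adjusted p = 0.00619). The other members called lower were Fcna (-3.57), Folr2 (-2.96), Cd209f (-2.87), Pf4 (-2.76), Cd209g (-2.71), F13a1 (-2.50), Mrc1 (-2.12) and Clec10a (-1.08). Cd209b, of the same receptor family as Cd209f and Cd209g, is not a member of the list.

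Ccl24, an eosinophil-attracting chemokine of such macrophages, fell by 3.40 and was also lower at day 7 (-2.52, limma adjusted p = 0.0385), as was Cd209b (-2.28, limma adjusted p = 0.0134). In bulk tissue, fewer cells of a type and less RNA per cell cannot be told apart. The broader macrophage and monocyte list was mixed, with 4 of 15 measured members higher (Lgals3, Trem2, Mpeg1 and Cd68) and 3 lower (C1qa, C1qb and Csf1r). Over all names 11.9% were higher and 19.3% lower, so the share lower was near that of all names. Without the dim arrays, at 1 remaining day 42 array, 1 resident macrophage gene and 0 fibroblast genes were called, with medians of -1.63 and -0.88.

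Fibroblast genes were lower as well, 10 of 13 measured and 0 higher, against 19.3% lower over all names, with a median difference of -1.50. Mfap5, a microfibril protein, had levels of 6.52, 6.53 and 6.33 on the unoperated arrays and 5.16, 4.25 and 4.98 on the day 42 arrays (log2 difference -1.66, limma adjusted p = 0.00258). Cd34, a surface marker of adventitial fibroblasts and endothelium, had levels of 6.28, 6.13 and 6.45 on the unoperated arrays and 5.51, 4.74 and 5.10 on the day 42 arrays (log2 difference -1.16, limma adjusted p = 0.00336). Day 42 replicate 2 was the lowest array in both, and no day 42 array reached the unoperated range. Clec3b (-2.26), Dpt (-1.88), Lum (-1.81), Serpinf1 (-1.64), Pdgfra (-1.52), Ly6a (-1.50), Dcn (-1.49) and Gsn (-1.27) completed the list of falls. Of 14 measured matrix proteases, 1 was higher (Mmp12) and 2 were lower, with a median difference of 0.42, so the list as a whole did not fall. The 2 were Mmp2, a gelatinase of fibroblasts, with a log2 difference of -2.14 (limma adjusted p = 0.00267), and stromelysin Mmp3 with -1.83 (limma adjusted p = 0.0146). Levels of Mmp3 overlapped, at 4.148 on day 42 replicate 1 and 4.146 on unoperated replicate 2. Lox, which crosslinks collagen and elastin, fell by 1.64, and 6 of 13 elastic fibre genes were lower, against 19.3% of all names. That count was 2 within the shared slide and under quantile or cyclic loess normalization. Elastin itself (Eln) had levels of 1.16, 1.22 and 3.76 on the unoperated arrays and 2.80, 2.73 and 3.18 on the day 42 arrays, which overlap, and was not called (limma adjusted p = 0.371).

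For several of the largest falls no difference from unoperated was called at day 7. Mme, the membrane peptidase neprilysin, had levels of -1.57, -1.43 and -1.53 on the unoperated arrays and -5.25, -4.96 and -4.75 on the day 42 arrays, tight within each group. Its fall was at least 3.01-fold (limma adjusted p = 0.00128), against a difference of -0.07 at day 7, and day 42 lay below day 7 by 3.41 (limma adjusted p = 0.00045). A second kept Mme probe gave -3.51. Spink2, a serine protease inhibitor, had levels of 0.77, 0.44 and 0.35 on the unoperated arrays and -2.01, -3.77 and -2.98 on the day 42 arrays (log2 difference -3.44, limma adjusted p = 0.00128) against 0.53 at day 7. Hsd11b1, which regenerates active glucocorticoid, had levels of 3.33, 2.95 and 2.98 on the unoperated arrays and 0.50, -1.13 and -0.67 on the day 42 arrays (log2 difference -3.52, limma adjusted p = 0.00258), and its difference at day 7 was -1.87 (limma adjusted p = 0.0503). Of the 12 largest falls, 11 were also lower at day 42 than at day 7, where 26.7% of all names were called in either direction. Both comparisons use the same day 42 arrays, on which these genes were chosen as low, so the count is no independent support. The remaining 5 of the 12 largest falls were Ifitm6 (-3.67), Glt8d2 (-3.63), Fmod, a matrix proteoglycan (-3.46), the eosinophil ribonuclease Ear1 (-3.01) and Tmem52. Tmem52 was not well above background at day 42 and fell by at least 2.54-fold. At day 42, Ifitm6, Glt8d2, Fcna and Spink2 were well above background on 1 of 3 arrays and Ear1 on 2 of 3. Their falls are not exact sizes.

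**Figure D3:**
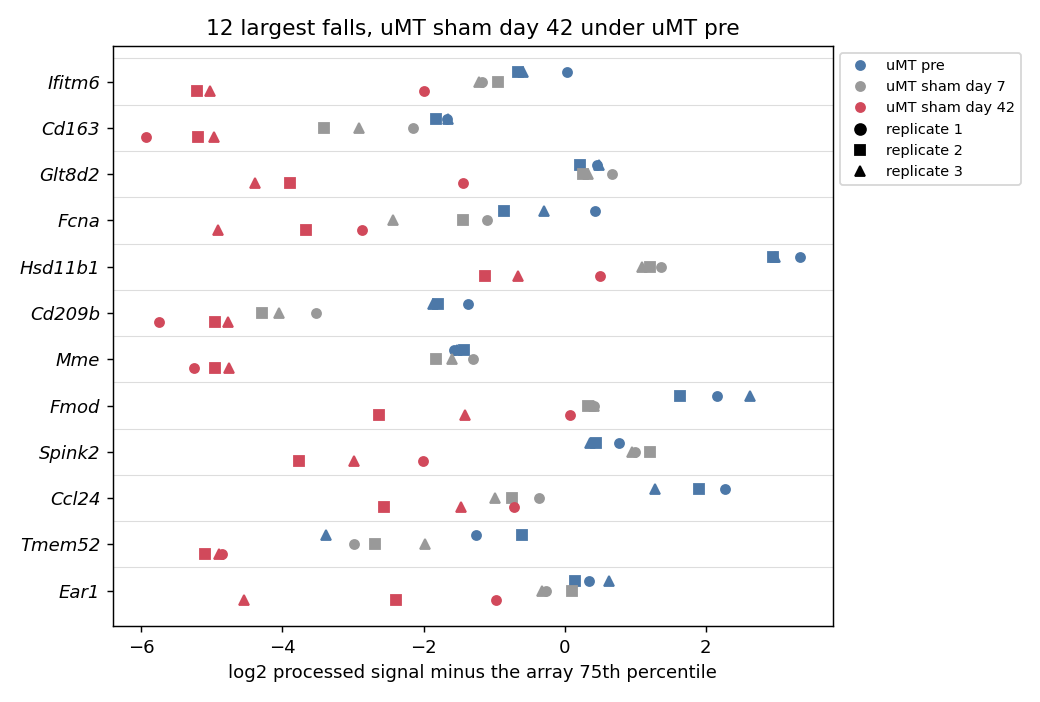
Levels (log2 processed signal minus the array 75th percentile) of the 12 genes with the largest falls on each uMT unoperated, sham day 7 and sham day 42 array; each point is 1 array. No overlap between day 42 and unoperated arrays was required of these genes, and Mme and Spink2 at day 7 lie with the unoperated arrays.

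Whether the day 42 change differed from that of the WT line was tested by an interaction over all 30 arrays. Of 23268 names, 1208 (5.19%) differed, 547 with a higher and 661 with a lower change in uMT. Without WT sham day 42 replicate 2, 6842 differed. That array was the dimmest of the series (36.6% of probes well above background), the only one on its slide and of its scan day, and its a107 signal of 854 stood apart from 131 and 139 on the other two arrays of its group. Leaving out other single arrays gave 236 (uMT sham day 42 replicate 2), 283 (WT pre replicate 3), 327 (uMT pre replicate 1), 541 (uMT pre replicate 2), 804 (WT pre replicate 1) and 2040 (uMT pre replicate 3). A deeper fall in uMT was called for 9 of the 12 largest falls with all arrays and for 12 without that array, among them Hsd11b1, whose difference of changes was -3.64 (limma adjusted p = 0.009), and Mme with -3.23 (limma adjusted p = 0.00737). These genes were chosen for the size of their fall on the same uMT arrays, which favours a deeper fall there, so the count is no independent support for a difference between the lines. In WT the log2 difference of Mme was -0.24 and that of Hsd11b1 was 0.12.

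Lists of other cell types held fewer calls. Contractile smooth muscle genes showed 0 higher and 0 lower of 18 measured; Acta2 had levels of 10.35, 10.97 and 9.85 on the unoperated arrays and 9.90, 10.09 and 11.05 on the day 42 arrays, a difference of -0.04. Among 14 endothelial genes 2 rose, Vwf (levels of 5.15, 5.46 and 5.63 on the unoperated arrays and 6.17, 6.88 and 6.19 on the day 42 arrays) and Tie1 (by 1.28), a share near the 11.9% of all names called higher. The other kept probe of Vwf gave a difference of 0.31. None of 15 white adipocyte genes was called. Of 7 mast cell genes Fcer1a (-2.70) and Cma1 (-2.44) fell. Among 15 Hox genes, which hold positional identity, 5 rose and 2 fell, with Hoxa4 up by 2.12, Hoxa3 by 1.05 and Hoxb6 by 0.96. Beside these counts, 11.9% of all names were higher and 19.3% lower. Of 16 cell cycle genes, 2 were higher, Mki67 (1.49) and Ccna2 (1.75), and 1 lower, Pcna (-1.05), which is near the 11.9% higher over all names. Mki67 and Ccna2 were higher by 3.23 and 3.81 at day 7, and day 42 was lower than day 7 for both (limma adjusted p = 0.0152 and 0.0167). Without the dim arrays, 0 members of the endothelial, mast cell, Hox, cell cycle and B cell lists were called.

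In the B cell list, 4 of 8 measured members were higher, Cd22 (2.11), Cr2 (1.30), Fcer2a (1.23) and Cd79a (0.84), in a line described as B cell-deficient, against 11.9% higher over all names. Cd22 was highest on the dim arrays of both groups, at 1.46 on unoperated replicate 2 and 3.12 and 3.05 on day 42 replicates 2 and 3. The other kept probe of Cr2 gave -0.095. The other 7 of the 15 list members were not measured, and Ms4a1 and Pax5, which are B cell genes, were well above background on 0 of the 6 arrays. The summed level of the list, on a linear scale relative to the 75th percentile, was 6.47 to 7.05 in unoperated and 9.31 to 13.7 in day 42 arrays, and without Cd22 it was 4.31 to 5.71 and 4.99 to 5.47, which overlap. Syk, the kinase in the title of the series, had a difference of 0.20 and was not called (limma adjusted p = 0.748).

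**Figure D4:**
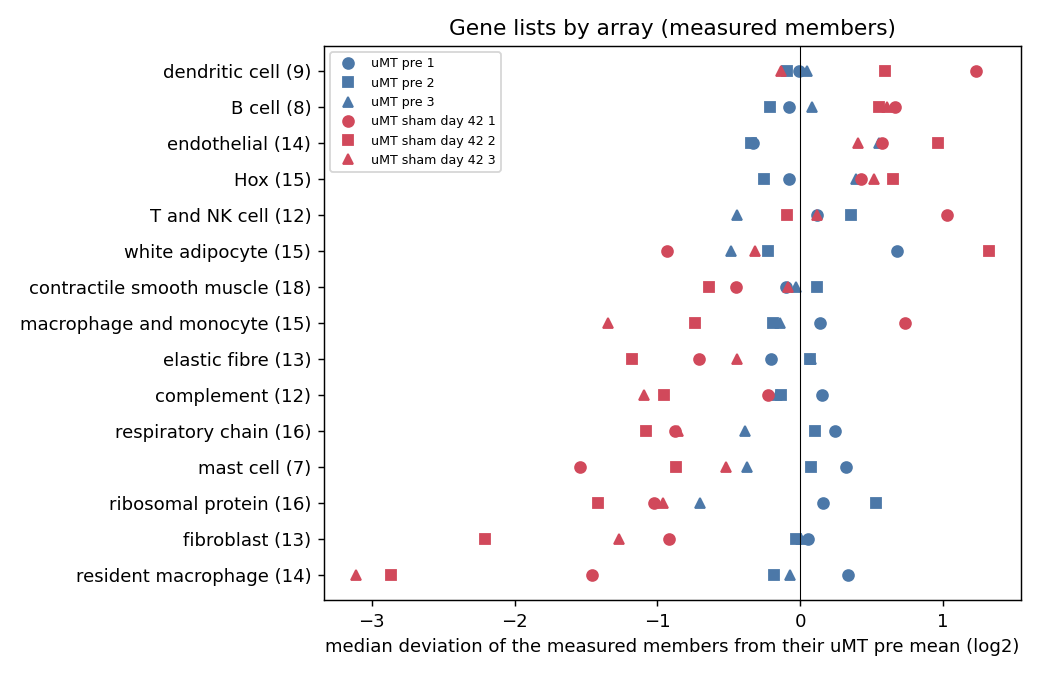
Median deviation (log2) of the measured members of 15 gene lists from their unoperated mean on each array; the number of members is in parentheses and each point is 1 array. Resident macrophage genes lie at -1.46 to -3.11 and fibroblast genes at -0.92 to -2.21 on the day 42 arrays.

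Differences followed 2 properties of the probes. Names whose probe starts from base 250 up to 500 of the transcript had a median difference of -0.60, against -0.03 for those from 2000 up to 4000. All 3 day 42 arrays lay below 0 in the first range, at -0.62, -0.74 and -0.50, and so did unoperated replicate 3 at -0.37. Probes above 60% GC had a median of 0.46, made up of -0.40, 0.53 and 0.92 on the day 42 arrays. The unoperated arrays spread as far there, at 0.09, 0.46 and -0.53, and in both groups the dim arrays were the high ones. In the brightest of 5 equal groups of names the median was -0.52, and 40.9% of them were lower.

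Calls in 4 lists were set against these properties. Ribosomal protein genes were lower for 15 of 16 (median -1.16), and respiratory chain genes for 13 of 16 (median -0.91). Beside these counts, 19.3% of all names and 40.9% of the brightest of the 5 groups of names were lower. Levels were not centred by brightness. After levels were centred by GC content and position, 8 ribosomal (median -0.58) and 10 respiratory chain genes (median -0.61) were called lower. Within the shared slide, which holds fewer arrays, 1 and 3 were called, with medians of -1.06 and -0.83. Under the same centring 9 resident macrophage genes (median -2.24) and 10 fibroblast genes (median -1.17) were called lower, and within the shared slide 8 (median -2.42) and 7 (median -1.48). All 24 largest rises and falls were called after that centring. They were chosen as large and called on the same arrays, so the count is no independent support. The part of array brightness, a107 signal and probe trends in each gene's difference was not tested beyond these refits.

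**Figure D5:**
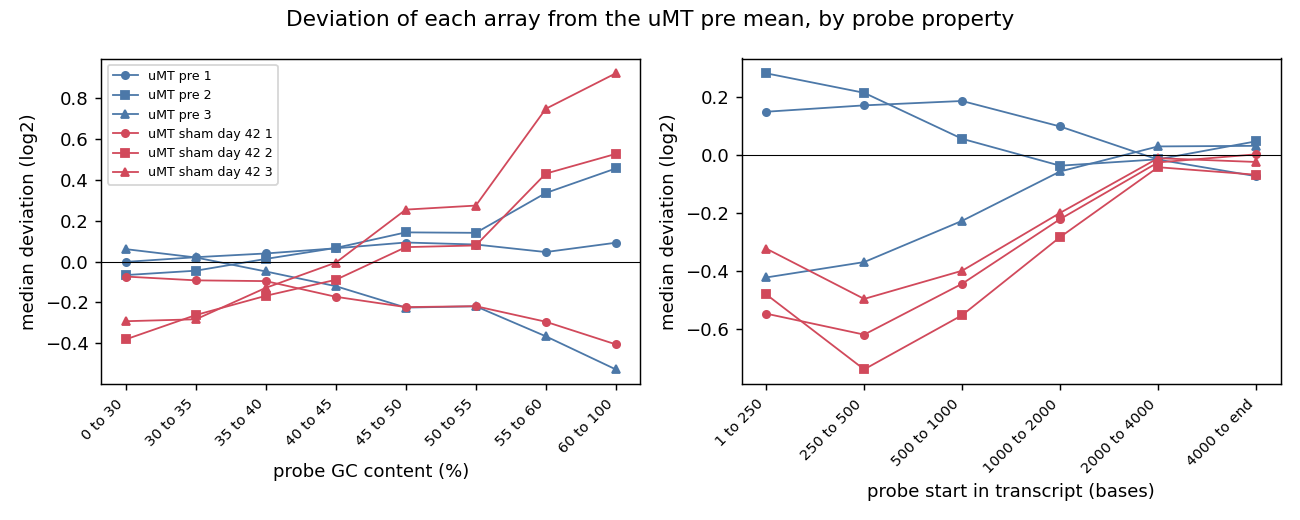
Median deviation (log2) from the unoperated mean on each array by probe GC content (%, left) and by probe start in the transcript (bases, right); each line is 1 array. Above 60% GC the arrays range from -0.53 to 0.92, and from base 250 up to 500 the day 42 arrays lie at -0.50 to -0.74.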

How the data were processed

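Total RNA of aortic tissue was hybridised to 1-colour Agilent SurePrint G3 Mouse 8x60K arrays. The deposited scanner files hold intensity values (background-corrected processed signal) made by the authors with Agilent Feature Extraction, version 10.7.1.1 per the file headers and 9.5.1.1 per the submitters' processing notes; the authors' value table of processed intensity was used as an alternative. The labels name 2 different RNA purification kits. Of 55681 non-control probes, 24 flagged as outliers were left out. Processed signals were scaled to each array's 75th percentile on the log2 scale, probes well above background on all 3 arrays of any fitted group were kept, and a gene was represented by its brightest kept probe. Names came through RefSeq accessions, symbols or synonyms for 27221, 3581 and 565 probes, and from the file alone for 24290. No spot was saturated (0 of all non-control spots). limma 3.58.1 in R 4.3.3 was fitted to the 15 uMT arrays with 1 mean for each of 5 groups (10 residual degrees of freedom), with Benjamini-Hochberg adjustment over 22074 names and a threshold of 0.05. The interaction used all 30 arrays. The model was checked on simulated data.

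The members, lists and the choice of the uMT arrays alone for the fit were made with earlier results of these data known, including counts from a fit over all 30 arrays. That fit gave 1697 higher and 2353 lower names, against 2635 and 4270 here. Named genes are the 12 largest rises and falls among called names with a reference symbol, the brighter group well above background and no overlap, the 3 members of each of 37 lists with the smallest p, and Ighm, Cd79a, Ms4a1, Jchain, Syk, Mmp2, Mmp9, Eln, Acta2 and Myh11; further list members are given where a count is listed. Ighm was matched to no probe. A bound ("at least N-fold") sets the brighter group's mean over a mean for the lower group. Each array of the lower group enters with its lowest signal among probes well above background, or the probe's own signal where higher. In all, 27 alternatives were run, of which 3 (centring by probe GC content, by position and by both) were chosen after seeing the data. The precision is limited by the 3 arrays per group.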

Additional observations from a re-analysis of the deposited data

Results flagged for a closer look

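For 20 named genes, the change from unoperated to sham day 42 differed between the uMT and WT lines (limma interaction over all 30 arrays, adjusted p = 0.00737 to 0.0499). Differences below are the uMT change minus the WT change on the log2 scale, n = 3 arrays per group, and 5.19% of all names passed the same test. Most of these genes were named for their change on the same uMT arrays, which favours a difference. Cd209b, Cd163, Mme, Tmem52 and Il1r2 were well above background on 0 of 3 uMT day 42 arrays, and Fcna, Ifitm6, Spink2, Fcer1a and Cxcl13 on 1 of 3. The fitted differences of these genes are not exact sizes. Among resident macrophage and related genes the differences were -4.27 for Cd209b, -3.36 for Ccl24, -3.34 for Fcna, -3.16 for C1qa, -2.71 for Cd209g and -2.53 for Cd163. In WT the change was 0.79 for Cd209b, -0.04 for Ccl24 and 1.11 for C1qa. Fibroblast genes Clec3b and Cd34 had differences of -2.43 and -1.54, and the protease Mmp3 one of -3.18, with a WT change of 1.36. Values for the remaining genes were -3.78 for Ifitm6, -3.64 for Hsd11b1, -3.24 for Tmem52, -3.23 for Mme and -2.31 for Spink2. The mast cell receptor chain Fcer1a had -3.78, the decoy receptor Il1r2 -3.77, and the B cell-attracting chemokine Cxcl13 -4.05. Ribosomal Rplp1 had -1.42, Clock -1.15 and Hoxb6 1.31. The WT side includes sham day 42 replicate 2, whose a107 signal of 854 stood apart, and its part was tested only by leaving it out, which moved the total from 1208 to 6842 names.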

How the results depend on the processing

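The counts moved most with the arrays used. Against 2635 higher and 4270 lower names, all 30 arrays gave 1697 and 2353, the compared groups alone 1506 and 2069, the compared groups without their dim arrays 118 and 18 (4131 names at an unadjusted p under 0.05), the shared slide 1113 and 1136, slide as a fixed block 1503 and 2370, and array weights, whose fit did not converge for every name, 4312 and 6734. Leaving out single arrays gave 1205 to 3309 higher and 2221 to 4735 lower; day 42 replicate 2 and unoperated replicate 1 moved the counts by over 1.5 times. Scaling by the percentile over probes well above background gave 4320 higher and 2258 lower, so that 65.7% of calls were higher against 38.2%, with the median of all names at 0.21; cyclic loess gave 2880 and 2561 (52.9% higher), the shared slide 49.5% higher, and centring by position, or by GC content and position, 2979 and 3019 (49.7%) and 3024 and 2990 (50.3%). With the replicate block, 2520 names were higher and 3992 lower; same-numbered arrays correlated at 0.13, 0.16 and -0.29 in their deviations, so the numbers do not pair the samples.

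The 1208 names that differed between the lines became 6842 without WT sham day 42 replicate 2 and ranged from 236 to 6842 over all arrays left out, with 236 without uMT sham day 42 replicate 2, 283 without WT pre replicate 3, 327 without uMT pre replicate 1, 541 without uMT pre replicate 2, 804 without WT pre replicate 1 and 2040 without uMT pre replicate 3. Without the filter 536 differed, with slide as a random block 1835, and with the replicate block 990. Brightness measures over all spots kept their direction (-1.05 against -0.96 percentage points).

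Not all of the 133 named genes were called in the full set. Within the shared slide 42 lost their call. Without the dim arrays, at 1 remaining day 42 array, most of the calls were lost. No called gene turned in a refit, and the 22 sign changes were all of genes not called in either fit. Another kept probe of a called gene had the opposite sign for Cxcl12 (-1.13, other probe 0.48), Tgfbr2 (-0.81, other probe 0.64) and Cr2 (1.30, other probe -0.095). The remaining called genes with further kept probes kept their sign on them. Acta2 turned to 0.25 without unoperated replicate 2, 0.18 and 0.09 without day 42 replicates 1 and 2, 0.97 under cyclic loess, 0.25 under the percentile over probes well above background, and 0.032, 0.24 and 0.23 after centring by GC content, position and both; it ranged from -0.39 to 0.25 over single arrays left out. Uty turned to 0.045 under that percentile and to 0.14 and 0.18 after centring by position and both, and ranged from -0.48 to 0.082 over arrays left out. Amy2a5 turned to -0.45 with all 30, with 29 arrays and with all 6 arrays well above background and to -0.69 without dim arrays, Cel to -0.15 and Nnat to -0.25 without them, Tpm1 to 0.38 with the mean of kept probes and Star to -0.00628 under normexp and quantile. Over arrays left out Bpgm ranged from -0.031 to 0.63 and Syk from -0.10 to 0.46. The cause of these changes was not tested. Brightness limits genes near background, where a fall has only a bound.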
